A study of Mus musculus with 7 samples.

Results

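Receptor, killing and regulatory genes of natural killer (NK) cells were followed in mouse bone marrow: Ncr1, Klrb1c, Klrk1, Klrd1, Klra8, Klra4, Il2rb, Gzma, Prf1 and Eomes. They were chosen by symbol through the GENCODE mouse M21 annotation, and all 10 were found once among the 49315 genes of the count table. RNA was sequenced with poly(A) selection from 7 marrow libraries. The 4 KO libraries are labelled miR-181a2b2-/-, a loss of the microRNA cluster on chromosome 2, and the 3 flox libraries are labelled miR-181a2b2 flox/flox. Mice of both groups had eaten chow and had undergone hindlimb ischemia, in which blood flow to a leg is cut off by surgery, so no library here comes from an unoperated mouse. The labels name no strain, age or sex, no agent that made the deletion and no cell type in which it acted. Nor do they say that each library is a separate animal. The p-values therefore weigh the group difference against the spread between these libraries, and that spread may be technical.

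NK cells are innate lymphocytes that kill virus-infected and transformed cells without prior priming. Activating and inhibitory surface receptors, many of them C-type lectin-like proteins encoded side by side in the NK gene complex on mouse chromosome 6, set whether the cell fires, and killing is done by perforin and granzymes released from granules. In mice most NK cells develop in the bone marrow, where interleukin 15 acts through the beta chain encoded by Il2rb and the transcription factor Eomes drives maturation. In human progenitor cultures miR-181 has been reported to promote NK development.

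The mature 5p products of the deleted cluster share a seed, bases 2 to 8 in capitals below. They are shown because the KO label names the cluster that encodes them. Levels of the mature sequences were not measured here, so their loss from KO marrow is not shown. Both lie on the plus strand of chromosome 2 in the GRCm38.p6 build (RefSeq), at chr2:38852741-38852763 and chr2:38853845-38853868.
mmu-miR-181a-5p: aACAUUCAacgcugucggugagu
mmu-miR-181b-5p: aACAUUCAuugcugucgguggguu
The genes Mir181a-2 and Mir181b-2 had 0 counts in all 7 libraries, and since mature microRNAs carry no poly(A) tail this is no check of the labels. The matching 8-base site, TGAATGTA, and its 7-base forms were sought in the NK genes, taking for each its longest 3' UTR in the annotation. None of the 10 held a site in UTRs of 67 bases (Gzma) to 2463 bases (Klrk1). Of 14319 tested genes with a 3' UTR, 23.8% held at least 1, with a median UTR length of 1301 bases. Only Klrb1c (1800 bases), Il2rb (2220 bases) and Klrk1 had a UTR longer than that median, so the 10 genes and the background are not matched for length. The search describes annotated letters and says nothing of regulation outside these UTRs.

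Total counts ran from 43110251 to 48320848 in KO and from 46151300 to 51688514 in flox. The 10 genes together took 3042 to 3773 counts in KO and 2705 to 2856 counts in flox, and all 10 passed the filter on low counts and were tested. Set against the marrow label, the data held high summed levels of neutrophil secondary granule and late markers, at 18147 to 22972 CPM in KO and 22881 to 31219.7 CPM in flox. The extraction protocol in the labels names adipose tissue instead; the 6 adipocyte markers summed to 27.9 to 59.7 CPM in KO and 32.7 to 79.8 CPM in flox. Flox 1 stood apart from the other flox libraries in B lineage markers, as described with the marker lists.

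All 10 NK genes had a higher mean in KO than in flox marrow, by 1.16-fold (Klrd1) to 2-fold (Gzma), but 0 of 10 passed an edgeR quasi-likelihood test with Benjamini-Hochberg adjustment over 17920 genes, where 0.145% of all tested genes passed. The lowest adjusted p was 0.22, for Klrb1c. At an unadjusted edgeR p under 0.05, 6 of the 10 were higher in KO and 0 were lower, beside 5.89% of all tested genes that were higher at that level and 8.17% that were lower. DESeq2 called 1 of the 10, Klrb1c, where it called 2.02% of genes, and limma-voom called 0. In 5 of the 10 (Klrb1c, Klra8, Il2rb, Gzma and Prf1) every KO library lay above every flox library, which held for 6.22% of all tested genes. For Gzma and Klra8 this depended on the TMM factors, 0.969 in KO 3 and 1.01 in flox 3. Gzma had 123 counts in KO 3 and 118 in flox 3, and Klra8 had 70 and 67. Divided by total counts alone, 48320848 and 46151300, KO 3 lay slightly below flox 3 in both genes. In 0 of the 10 was every KO library below every flox library, as in 7.41% of all tested genes. The median log2 fold change of the 10 was 0.48, beside -0.01 over all tested genes, where 48.1% of genes had a positive value. Added up, the 10 genes stood at 79.5, 73.1, 65 and 73 CPM (reads scaled to library size) in KO 1 to KO 4, against 56.9, 55.4 and 58.6 CPM in flox 1 to flox 3. The groups did not overlap in this sum, with means of 72.7 ± 5.94 CPM (SD, n = 4) in KO and 57 ± 1.59 CPM (SD, n = 3) in flox. Il2rb, which T cells also carry, was the largest part of the sum, at a mean of 31.5 CPM in KO and 26.8 CPM in flox. In bulk marrow, more cells of a type and more RNA per cell cannot be told apart.

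**Figure D1:**
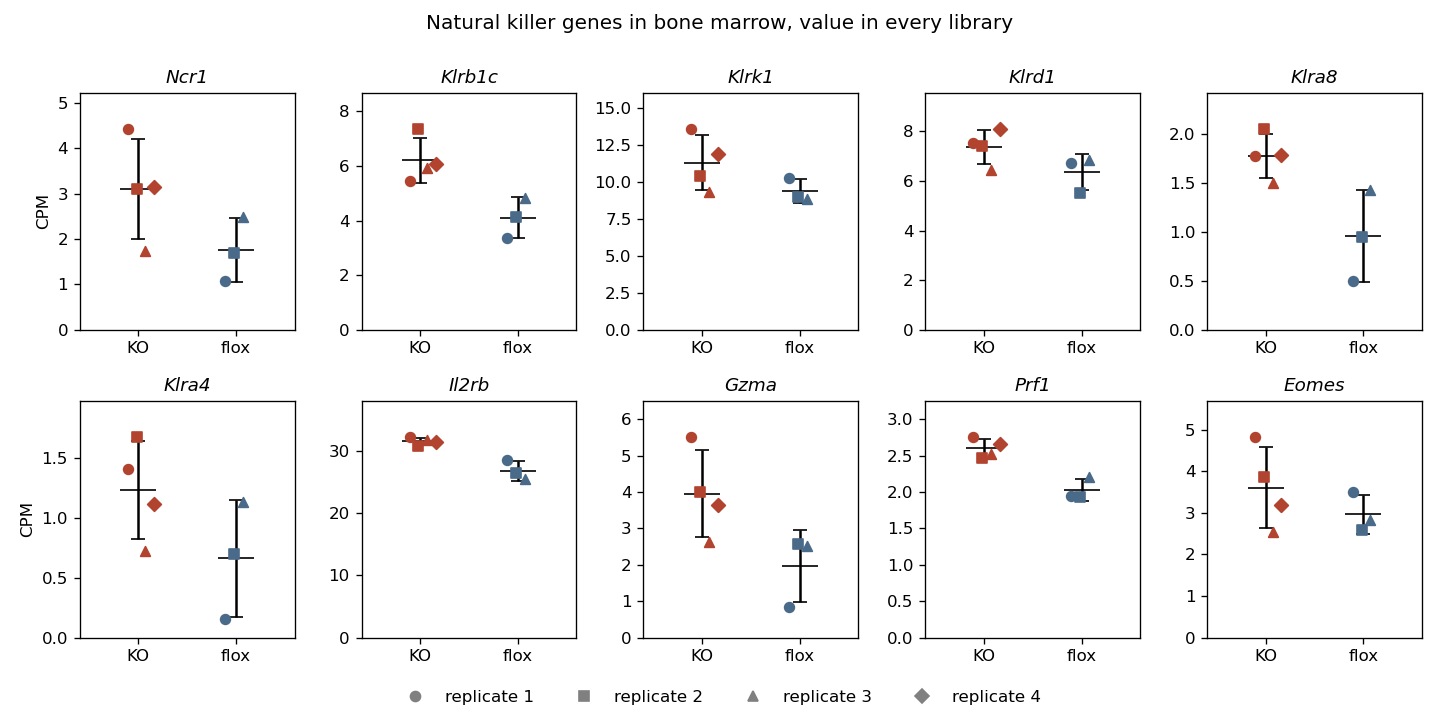
CPM on TMM-scaled library sizes (y axis, from 0) of each NK gene in the KO and flox libraries (x axis); symbols mark the replicate number, bars the mean and the SD. Klrb1c, Klra8, Il2rb, Gzma and Prf1 show 4 KO points above all 3 flox points, while the groups overlap in the other 5 genes.

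Activating receptors came first by role. Ncr1 encodes NKp46, the natural cytotoxicity receptor that marks NK cells across mouse strains (ENSMUSG00000062524, chromosome 7, 4337724 to 4345164, plus strand, GRCm38). Its level was 4.43, 3.11, 1.73 and 3.14 CPM in KO 1 to KO 4, against 1.08, 1.7 and 2.48 CPM in flox 1 to flox 3. KO 3 lay within the flox range and the other 3 KO libraries lay above it. The log2 fold change was 0.83 (SE 0.35, 95% limits 0.03 and 1.62, adjusted p = 0.343 by edgeR), and 0.57 without flox 1 or 1.16 without flox 3.

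The 250 bases before the annotated start of Ncr1 are shown because this is the gene most specific to NK cells in the set (chr7:4337474-4337723, plus strand, RefSeq, GRCm38.p6). Capitals mark the letters TGTGGT on either strand, a core word of RUNX factors, which are transcription factors of lymphocytes.
Ncr1: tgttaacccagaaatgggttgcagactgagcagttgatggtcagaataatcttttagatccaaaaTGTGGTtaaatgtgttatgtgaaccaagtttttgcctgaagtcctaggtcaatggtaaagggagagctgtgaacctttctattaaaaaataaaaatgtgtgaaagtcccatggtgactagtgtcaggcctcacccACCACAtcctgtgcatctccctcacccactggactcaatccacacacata
The same word stood in the 250 bases before a start site in 5 of the 8 NK genes found in the RefSeq promoter table (Ncr1, Klrb1c, Klrk1, Gzma and Prf1), and in 14% of 32851 promoter windows of that length over 27025 genes. The T-box word GGTGTGA, which Eomes can bind, stood in 0 of the 8 and in 3.33% of all windows. The STAT word TTCNNNGAA was in 0 of the 8 and 7.02% of windows, and the ETS word AGGAAGT in 1 of the 8 (Prf1) and 7.69%. Each word was sought on both strands, and a match or its absence describes letters in this window only.

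Klrb1c encodes NK1.1, the activating lectin-like receptor used to stain NK cells of C57BL/6 mice (ENSMUSG00000030325, chromosome 6, 128778485 to 128789215, minus strand). It stood at 5.46, 7.36, 5.92 and 6.08 CPM in KO, against 3.35, 4.14 and 4.83 CPM in flox. The lowest KO library was above the highest flox library. Its log2 fold change of 0.60 (SE 0.17, 95% limits 0.22 and 0.97) had the lowest edgeR p of the 10, at 0.00573 unadjusted, rank 463 of 17920, and an adjusted p of 0.22; DESeq2 gave 0.61 with an adjusted p of 0.039. The predicted gene Gm44511 shares 413 exon bases with it on the same strand, 13.9% of its exon length, so part of its reads may have been left out or shared.

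Klrk1 encodes NKG2D, the receptor for stress-induced ligands, which also sits on some T cells (ENSMUSG00000030149, chromosome 6, 129610323 to 129623864, minus strand). Its level was 13.6, 10.4, 9.34 and 11.9 CPM in KO, against 10.3, 8.98 and 8.85 CPM in flox. KO 3 fell inside the flox range, KO 2 barely exceeded the highest flox library, and KO 1 and KO 4 lay clearly above it. The log2 fold change was 0.27 (SE 0.14, 95% limits -0.05 and 0.59, adjusted p = 0.431 by edgeR), and 0.17 without KO 1. Klrd1 encodes CD94, which pairs with NKG2 chains to read the class I molecule Qa-1 (ENSMUSG00000030165, chromosome 6, 129591782 to 129598775, plus strand). It measured 7.53, 7.42, 6.43 and 8.1 CPM in KO, against 6.71, 5.53 and 6.86 CPM in flox. The groups overlapped, and at 0.21 (SE 0.14, 95% limits -0.09 and 0.51, adjusted p = 0.533 by edgeR) Klrd1 had the smallest fold change of the 10, which was 0.14 without flox 2.

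Klra8 and Klra4 encode Ly49H, which recognises a protein of mouse cytomegalovirus, and Ly49D, an activating receptor for class I molecules. Klra8 is a gene of C57BL/6 mice that several other inbred strains lack, so its reads bear on the strain, which the labels leave unnamed. Klra8 (ENSMUSG00000089727, chromosome 6, 130115226 to 130129898, minus strand) had 84, 96, 70 and 78 counts in KO, against 25, 46 and 67 counts in flox. As CPM this was 1.77, 2.05, 1.5 and 1.78 in KO and 0.498, 0.943 and 1.43 in flox, with all KO libraries above all flox libraries. The log2 fold change was 0.89 (SE 0.32, 95% limits 0.19 and 1.6, adjusted p = 0.272 by edgeR), and 0.58 without flox 1. Klra4 (ENSMUSG00000079852, chromosome 6, 130043731 to 130067271, minus strand) had 67, 79, 34 and 49 counts in KO, against 8, 34 and 53 counts in flox. On the CPM scale these were 1.41, 1.68, 0.727 and 1.12 in KO and 0.159, 0.697 and 1.13 in flox. The groups overlapped, flox 1 held the fewest reads by far, and the log2 fold change was 0.90 (SE 0.54, 95% limits -0.32 and 2.13, adjusted p = 0.501 by edgeR), or 0.43 without flox 1 and 1.53 without flox 3.

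These receptors belong to a family of near copies, shown here by the 250 bases before the start of Klra8 (chr6:130129899-130130148) and Klra4 (chr6:130067272-130067521), both on the minus strand (RefSeq, GRCm38.p6). Capitals mark the longest run that the pair shares, 27 bases.
Klra8: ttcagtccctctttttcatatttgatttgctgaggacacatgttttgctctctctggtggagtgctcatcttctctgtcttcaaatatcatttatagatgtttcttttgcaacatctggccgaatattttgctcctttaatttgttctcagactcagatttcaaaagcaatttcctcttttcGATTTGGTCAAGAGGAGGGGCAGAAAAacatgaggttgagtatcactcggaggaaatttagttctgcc
Klra4: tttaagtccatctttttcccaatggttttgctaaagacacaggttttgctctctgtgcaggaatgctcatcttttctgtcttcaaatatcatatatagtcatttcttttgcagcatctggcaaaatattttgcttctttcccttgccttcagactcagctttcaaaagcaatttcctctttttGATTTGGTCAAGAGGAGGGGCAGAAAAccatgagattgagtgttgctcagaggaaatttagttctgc
In a global alignment 212 of 251 columns were identical, 84.5%. Among the 50-base windows of annotated Klra8 transcripts, 33.1% also occurred in a transcript of another gene, most often the pseudogene Klra14-ps at 20.4%. For Klrb1c that share was 17%, for Klra4 4.68% and for Eomes 2.1%, and for the other 6 genes it was 0. How reads that map to several places were counted is unstated, so Klra8, Klrb1c and Klra4 values are uncertain to that extent.

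The cytokine receptor came next. Il2rb encodes the chain of the interleukin 15 and interleukin 2 receptors through which NK cells are kept alive (ENSMUSG00000068227, chromosome 15, 78479256 to 78495271, minus strand). It was read deepest, at 32.3, 30.8, 31.7 and 31.4 CPM in KO, against 28.5, 26.4 and 25.5 CPM in flox. The KO libraries lay close together, with a coefficient of variation of 1.99%, and all were above flox. The log2 fold change was small, at 0.23 (SE 0.07, 95% limits 0.08 and 0.39, adjusted p = 0.23 by edgeR), with DESeq2 at an adjusted p of 0.0646. Il2rb is also carried by T cells, so it is not a measure of NK cells alone.

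Among killing genes, Gzma, the tryptase of cytotoxic granules, had the largest fold change (ENSMUSG00000023132, chromosome 13, 113093825 to 113100981, minus strand). Its level was 5.52, 4.01, 2.63 and 3.64 CPM in KO, against 0.837, 2.58 and 2.52 CPM in flox. KO 3 lay just above flox 2 and flox 3, while flox 1 was far below all other libraries. The log2 fold change was 1 (SE 0.40, 95% limits 0.09 and 1.90, adjusted p = 0.32 by edgeR), and 0.63 without flox 1. Prf1 encodes perforin, the protein that opens pores in the target membrane (ENSMUSG00000037202, chromosome 10, 61297833 to 61304680, plus strand). It stood at 2.76, 2.47, 2.52 and 2.66 CPM in KO, against 1.95, 1.93 and 2.2 CPM in flox. The groups were narrow and did not overlap, with a log2 fold change of 0.36 (SE 0.16, 95% limits 0.01 and 0.71, adjusted p = 0.341 by edgeR).

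The upstream sequences of this pair of effector genes are shown because they hold the matches named above, RUNX words in both and ETS words in Prf1 alone, in capitals. They lie at chr13:113100982-113101231 on the minus strand and chr10:61297586-61297835 on the plus strand (RefSeq, GRCm38.p6).
Gzma: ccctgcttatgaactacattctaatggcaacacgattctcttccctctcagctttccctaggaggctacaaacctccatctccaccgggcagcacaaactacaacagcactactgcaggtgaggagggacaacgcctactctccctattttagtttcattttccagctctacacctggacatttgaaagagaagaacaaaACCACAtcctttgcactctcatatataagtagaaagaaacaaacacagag
Prf1: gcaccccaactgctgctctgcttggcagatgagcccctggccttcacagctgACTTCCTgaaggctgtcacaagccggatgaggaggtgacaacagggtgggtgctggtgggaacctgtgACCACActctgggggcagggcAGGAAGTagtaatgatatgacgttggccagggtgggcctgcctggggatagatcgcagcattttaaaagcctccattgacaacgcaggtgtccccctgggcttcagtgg

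Eomes encodes the T-box factor of mature NK cells (ENSMUSG00000032446, chromosome 9, 118478212 to 118486132, plus strand). Its level was 4.83, 3.86, 2.54 and 3.19 CPM in KO, against 3.49, 2.58 and 2.82 CPM in flox. KO 3 was the lowest of all 7 libraries, so the groups overlapped, and the log2 fold change was 0.28 (SE 0.23, 95% limits -0.23 and 0.80, adjusted p = 0.643 by edgeR) or 0.11 without KO 1. An antisense gene, Gm33460, covers 118 of its exon bases, and whether counting used strand is unstated, so reads there cannot be told apart.

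**Figure D2:**
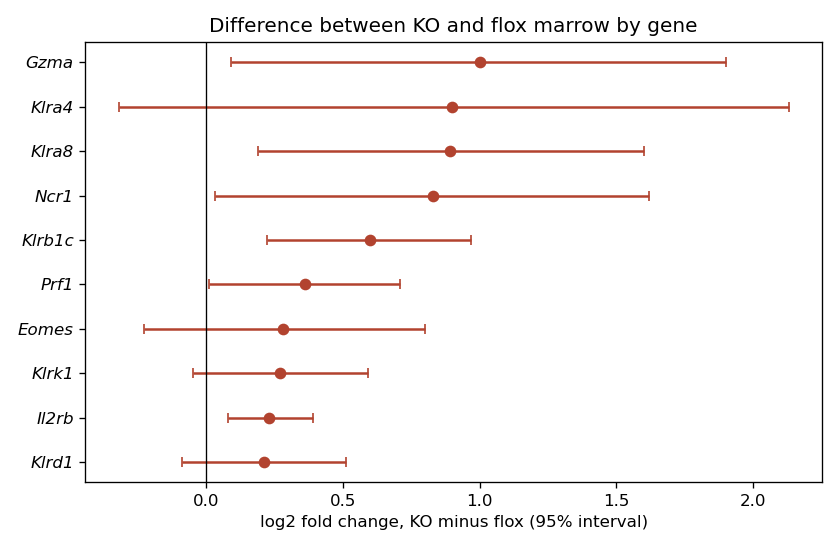
Log2 fold change, KO minus flox, with its 95% interval from the edgeR quasi-likelihood fit (x axis) for each NK gene (y axis, ordered by size). All 10 estimates are above 0, from 0.21 for Klrd1 to 1 for Gzma, and the intervals of Klrk1, Klrd1, Klra4 and Eomes include 0.

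The libraries were not ordered alike in every gene. KO 1 was the highest library in 6 of the 10 genes, KO 2 in 3 and KO 4 in 1. Flox 1 was the lowest in 5 (Ncr1, Klrb1c, Klra8, Klra4 and Gzma), flox 2 in 2 (Klrd1 and Prf1), flox 3 in 2 (Klrk1 and Il2rb) and KO 3 in 1 (Eomes). In flox 1 the Klrk1, Il2rb and Eomes levels were the highest of the 3 flox libraries, so that library was low in some NK genes and not in others. The spread within groups differed as well, the smallest coefficients of variation being those of Il2rb, at 1.99% in KO and 5.75% in flox. The largest were those of Ncr1 within KO, at 35.5%, and of Klra4 within flox, at 73.5%.

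Each gene was also set against the mean log2 CPM of the other NK genes in the same library, a centring that by itself puts some genes above 0 and others below. Klra4, Gzma, Klra8 and Ncr1 had positive differences, KO minus flox, of 0.60, 0.56, 0.42 and 0.25 on the log2 scale, and these are 4 of the 5 genes that were lowest in flox 1. Klrd1, Il2rb, Eomes, Klrk1 and Prf1 had negative ones, at -0.42, -0.39, -0.38, -0.37 and -0.26, and Klrb1c hardly differed at 0.01. In none of the 10 did the KO and flox libraries separate fully on this measure. For Klrd1 and Prf1, 3 of 4 KO libraries lay below all flox libraries, and for Klra8 3 of 4 lay above them.

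Per exon length, the levels of the 10 genes ran over a wide range, and neighbours in the order overlapped. Il2rb was highest, at 6.88 ± 0.634 CPM per kb over the 7 libraries (SD), followed by Klrd1 at 5.42 ± 0.655 and Gzma at 3.09 ± 1.46. Klrb1c at 1.79 ± 0.45, Ncr1 at 1.64 ± 0.738, Klrk1 at 1.46 ± 0.241 and Klra8 at 1.21 ± 0.455 CPM per kb came next, and Prf1 at 0.912 ± 0.13, Eomes at 0.801 ± 0.197 and Klra4 at 0.795 ± 0.407 last. The order pools both groups and differs between them: Klra4 was above Eomes in KO (0.992 and 0.868) and below it in flox (0.532 and 0.713), and Ncr1 was above Klrk1 in KO (2.02 and 1.57) and below it in flox (1.14 and 1.31). Il2rb exceeded Klrd1 and Klrd1 exceeded Gzma in 7 of 7 libraries, although the ranges over libraries overlapped. Ncr1 exceeded Klrk1, and Eomes exceeded Klra4, in only 4 of 7, so those neighbours did not differ beyond their spread. Exon lengths are the union over all annotated transcripts, which makes genes with long minor transcripts such as Klrk1 (7183 bases) look lower.

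**Figure D3:**
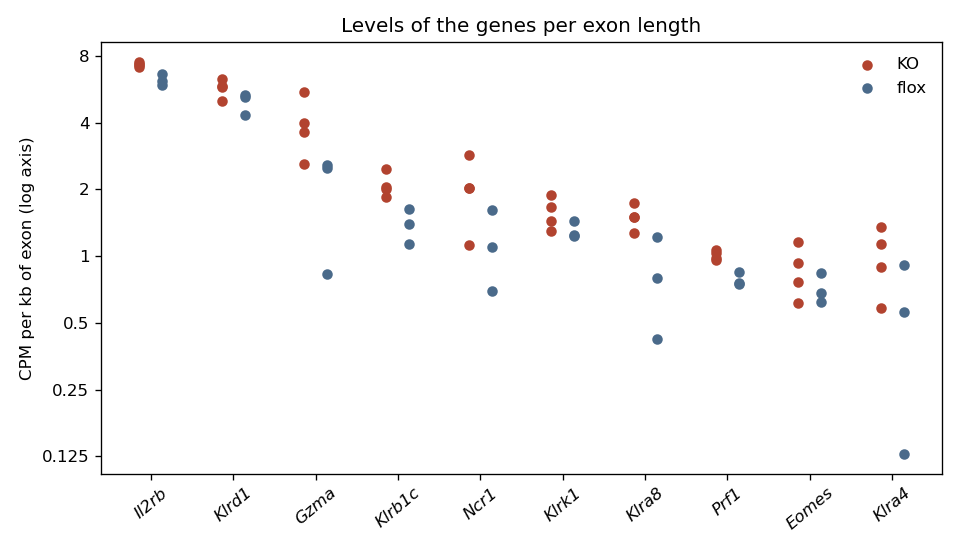
CPM per kb of exon (y axis, log scale) of each NK gene (x axis, in order of the mean over 7 libraries), 1 point per KO or flox library. Il2rb and Klrd1 lead in every library, Gzma ranges from 0.832 to 5.49 CPM per kb, and the lowest point is Klra4 in flox 1 at 0.128 CPM per kb.

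Other genes of the NK system did not share 1 direction. Of 26 further NK receptor genes 25 were tested, 15 with a positive and 10 with a negative log2 fold change (median 0.12), and 0 passed in either direction by edgeR over all genes, with 5 higher and 1 lower at an unadjusted p under 0.05. Those with the lowest p were Klri2, a lectin-like receptor chain, at 2.65 ± 0.951 CPM in KO and 1.11 ± 0.368 CPM in flox (log2 fold change 1.25, edgeR adjusted p = 0.215), Slamf7, a receptor of NK, B and plasma cells (0.94, 0.23), Klra1, the receptor Ly49A (0.97, 0.234), and Klrc2, the activating CD94 partner NKG2C (0.54, 0.249). The inhibitory partner Klrc1, named for its role, gave -0.03 (edgeR adjusted p = 0.97). The 1 receptor gene lower at an unadjusted p under 0.05 was Fcgr3, at 141 CPM in KO and 170.2 CPM in flox (-0.27, edgeR adjusted p = 0.256). Fcgr3 and Klra2 (30.2 CPM in KO, 31.9 CPM in flox) had the highest means of this list, and which cells carried their reads was not tested. The median of this list was 0.02 without KO 1 and 0.24 without KO 3. A short list of 7 NK complex genes known from C57BL/6 mice (Klra8, Klra4, Klrb1c, Klra1, Klra3, Klra7 and Klra9), 3 of them among the 10, had a median of 0.60 with 7 above 0 and 0 past the threshold, and without KO 2 it had 6 above 0. That list is a selection, and other genes of the complex had values below 0, among them Klra6 (-0.56), Klrb1f (-0.23), Klra2 (-0.08) and Klrc1, none of which passed. All 7 had reads in every library.

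Receptor adaptors and proximal kinases are shared with myeloid and B cells. Of 14, 13 were tested, 4 above and 9 below 0 (median -0.09), and 0 passed. Lowest by p were Syk, a kinase also of B cells (0.28, edgeR adjusted p = 0.269), Zap70, the kinase of T and NK cells (0.35, 0.286), Vav1, an exchange factor (-0.19, 0.401), and Sh2d1b1, the adaptor EAT-2 (-0.27, 0.52). Tyrobp, which encodes DAP12, the adaptor of Ly49D and Ly49H, and Hcst, which encodes DAP10, the adaptor of NKG2D, are named for that role and gave -0.13 (adjusted p = 0.584) and -0.08 (adjusted p = 0.821). Tyrobp averaged 317 CPM in KO and 347 CPM in flox, and the groups overlapped.

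Of 19 other granule and killing genes 17 were tested, 8 above and 9 below 0 (median -0.01), and 0 passed by edgeR, with 0 higher and 5 lower at an unadjusted p under 0.05. The 4 with the lowest p were all lower in KO and are expressed well beyond NK cells. They were Rab27a, a granule docking protein (-0.39, edgeR adjusted p = 0.206), Unc13d, the fusion factor Munc13-4 (-0.21, 0.275), Nkg7, a granule membrane protein (-0.58, 0.3), and Lamp1, a lysosomal membrane protein (-0.17, 0.312). Beside them, neutrophil primary granule markers were below 0 in 6 of 6 with 0 past the threshold, with sums of 2615 to 3662 CPM in KO and 3609 to 6372 CPM in flox and none at 0. Their part in these values was not tested. Gzmb, the granzyme that activates caspases in target cells and is named as the usual partner of perforin, gave 0.20 (adjusted p = 0.808). Gzmc and Ifng were too low to be tested, at 2 to 10 and 7 to 33 counts in KO and 0 to 2 and 5 to 9 counts in flox.

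The 15 genes of interleukin 15, 12 and 18 signalling were all tested, 7 above and 8 below 0 (median -0.02), and 0 passed. Il15, the NK survival cytokine itself, stood at 10.8, 11.2, 8.44 and 10.9 CPM in KO, against 12.9, 13.4 and 11.5 CPM in flox, below flox in every KO library (-0.28, edgeR adjusted p = 0.346). Stat5b, which relays its signal, gave -0.10 (0.497), the presenting receptor Il15ra 0.21 (0.54) and the feedback inhibitor Cish -0.24 (0.587).

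Transcription factors of the lineage split 7 above to 8 below 0 over 15 tested genes (median 0), with 0 past the threshold. Gata3 gave 0.50 (edgeR adjusted p = 0.267), Ets1 0.34 (0.285), Tox 0.37 (0.384) and Ikzf3, also a B cell factor, 0.95 (0.422). Tbx21, which encodes T-bet and is named as the partner of Eomes, stood at 3.77, 1.51, 1.54 and 1.3 CPM in KO, against 1.45, 1.64 and 1.58 CPM in flox. Of the KO libraries only KO 1 was above the flox range (log2 fold change 0.38, adjusted p = 0.706 by edgeR). Traffic receptors split evenly, 5 above and 5 below 0 over 10 tested (median -0.02) with 0 past the threshold, led by the integrin chain Itgam (-0.37, adjusted p = 0.186), the chemokine receptors Cxcr3 (0.39, 0.322) and Cxcr6 (0.47, 0.491), and S1pr5, the sphingosine phosphate receptor by which NK cells leave the marrow (0.48, 0.423). Of 18 listed ligands of NK receptors 15 were in the table under these names and 13 were tested, 7 above and 6 below 0 (median 0.04), with 0 past the threshold. Among them Clec2i gave 0.37 (adjusted p = 0.315), the NKG2D ligand H60b 0.41 (0.426), Clec2f 1.20 (0.627) and the class I heavy chain H2-K1 0.14 (0.709), and H2-T23, the Qa-1 molecule read by CD94 and named for that role, gave 0.04 (0.847).

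Markers of cells that share some of these genes were set beside the NK genes. The 13 T cell markers, 10 of them above 0, summed to 82.3 to 101 CPM in KO and 78.8 to 95.1 CPM in flox, with a median of 0.10 and 0 past the threshold; without flox 3 the median was -0.05 with 4 of 13 above 0, and without flox 1 it was 0.21 with 12 of 13. Markers of gamma-delta and intraepithelial lymphocytes, which carry Gzma in the gut, had 5 of 8 above 0 and overlapped almost fully, at 23.2 to 27.7 CPM in KO and 23.3 to 27.1 CPM in flox. Markers of type 2 innate lymphoid cells summed to 37.8 to 52.1 CPM in KO and 28.7 to 51.9 CPM in flox, with 3 of 4 tested above 0 and the cytokine genes Il5 and Il13 at 3 counts or fewer in every library, 0 in some. All 3 of these sums overlapped between the groups. Among the NK lists, sums did not overlap for the 10 genes and the short list of 7 genes from C57BL/6 mice. That short list holds Klra8, Klra4 and Klrb1c of the 10, so its sum is not a separate observation. In the opposite direction, sums did not overlap for the other granule and killing genes, at 1338 to 1517 CPM in KO and 1534 to 1830.3 CPM in flox. The same held for the NK traffic receptors, at 753 to 829.8 CPM in KO and 841 to 1002 CPM in flox.

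Other marker lists had all their log2 fold changes on one side of 0, but only the intestinal epithelium list had members past the threshold. B lineage markers had positive log2 fold changes in 12 of 12 (median 1.13) with 0 past the threshold, at 848 to 1072 CPM in KO, against 84.2, 503 and 798 CPM in flox 1 to flox 3, so flox 1 was lowest there as it was in 5 NK genes. Without flox 1 the B lineage median was 0.66 and the NK median 0.42, and without flox 3 they were 1.79 and 0.58. Plasmacytoid dendritic cell markers were above 0 in 7 of 7 (median 0.47) with overlapping sums, at 521 to 718 CPM in KO and 321 to 539.6 CPM in flox. Their largest log2 fold changes were those of Spib (1.01) and Ly6d (0.74), the smallest those of Irf8 (0.07) and Bst2 (0.12). They were above 0 in 6 of 7 without flox 1 (median 0.32) and without KO 1 (median 0.33). Erythroid markers were above 0 in 7 of 7, also with overlapping sums, at 54029 to 71531 CPM in KO and 33865 to 56502 CPM in flox. Monocyte markers were below 0 in 7 of 7, at 2027 to 2299 CPM in KO and 2345 to 2866 CPM in flox, and neutrophil secondary granule and late markers in 8 of 8. Basophil and mast cell markers were below 0 in 6 of 6 (median -0.35) with overlapping sums, at 165 to 412 CPM in KO and 339.8 to 409.7 CPM in flox, and without KO 3 in 4 of 6 (median -0.13). Without flox 2 the medians were -0.31 for neutrophil primary granule markers (-0.64 with it), -0.15 for secondary granule and late markers (-0.31), 0.19 for erythroid markers (0.35) and -0.07 for monocyte markers (-0.14). Intestinal epithelium markers were higher in 12 of 12, of which 9 passed over all genes (Fcgbp, Clca1, Krt8, Muc2, Tff3, Krt19, Sis, Vil1 and Cdh17), at 130.3 to 170.5 CPM in KO and 64.2 to 69.6 CPM in flox. None of these lists had a marker at 0 in all libraries, and their part in the NK values was not tested.

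**Figure D4:**
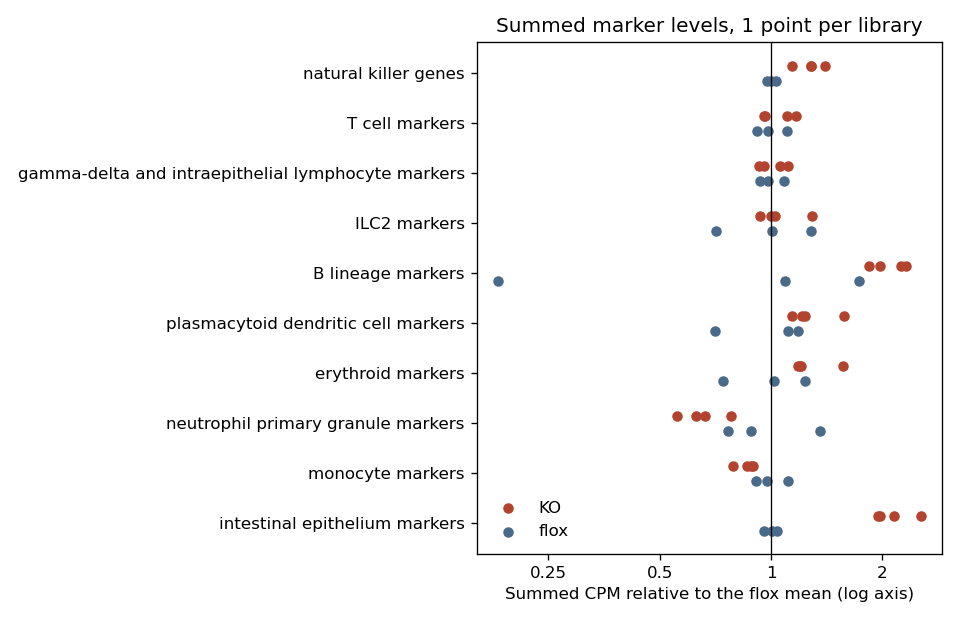
Summed CPM of each marker list divided by its flox mean (x axis, log scale), 1 point per KO or flox library, for the NK genes and 9 lists of other cells (y axis). NK genes lie above the flox range in all 4 KO libraries, T cell and gamma-delta lists overlap between groups, and flox 1 is far to the left in B lineage markers.

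With each group's mean subtracted, the 8 genes most like the average of the NK genes over the 7 libraries were Ccar1 (Pearson r = 0.993), Naa15 (0.984), Phka1 (0.983), Tmem123 (0.972), Zfp943 (0.971), Rnf2 (0.969), Mbtd1 (0.962) and Cnot6l (0.959). Of 11204 genes compared, 49 reached an r of 0.9 or more. None of the 8 is an NK gene by the lists used here, and with 7 libraries in 2 groups the measure only ranks genes. Within the set, Ncr1 followed the average most closely (0.974) and Il2rb least (-0.398). Each of these genes is itself part of that average, so its r is partly built in.

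**Figure D5:**
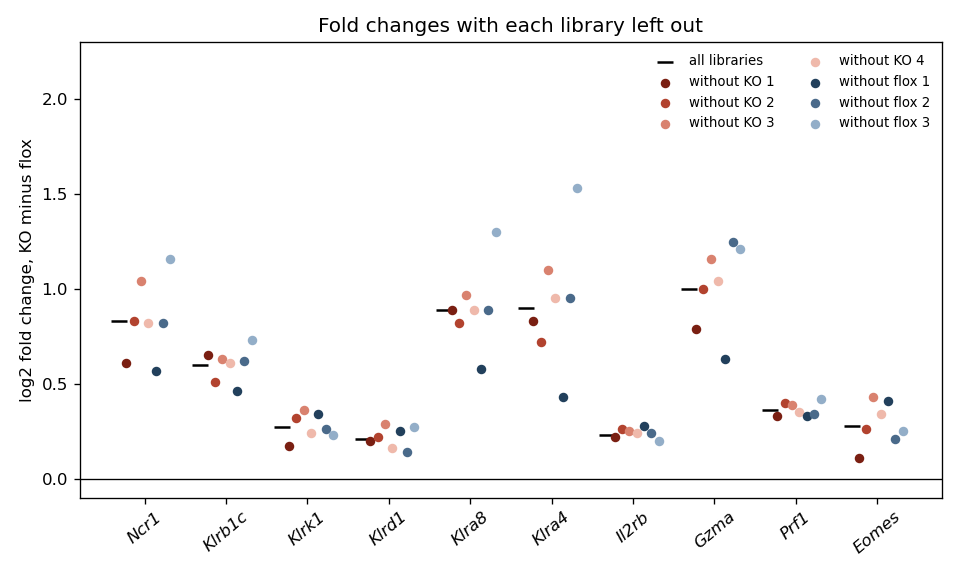
Log2 fold change, KO minus flox, of each NK gene (x axis) with all libraries (dash) and with each library left out (points). All values stay above 0, the lowest being 0.11 for Eomes without KO 1, and Ncr1, Klra8, Klra4 and Gzma drop most without flox 1, to 0.57, 0.58, 0.43 and 0.63.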

How the data were processed

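Raw read counts per Ensembl gene were deposited by the authors in 1 table of 7 columns, not normalized. Per the submitters' processing notes, reads were handled with Trimmomatic 0.36, STAR 2.5.2b and featureCounts of Subread 1.5.2 on GRCm38; annotation release, strand setting and multi-mapping rule: not given in the sources used here. Columns were matched to samples by library code and groups follow the genotype label. GENCODE M21 named 49056 of 49315 gene IDs.

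Counts were filtered (filterByExpr, minimum count 10), normalized with TMM and tested with robust edgeR 4.0.16 glmQLFit and glmQLFTest, KO against flox, two-sided, Benjamini-Hochberg over 17920 genes, threshold 0.05 (R 4.3.3). Standard errors are those implied by the F statistic. limma 3.58.1 (voom) and DESeq2 1.42.0 were alternatives, with other normalizations, filters, a non-robust fit, removal of haemoglobin, mitochondrial and immunoglobulin genes, the replicate block and each library left out. CPM use TMM-scaled library sizes; log2 CPM a prior count of 2. On simulated counts for this comparison (17920 genes), 28% of genes changed 1.5-fold, 56% changed 2-fold and 90% changed 3-fold were recovered. The 200 changed genes were drawn at random from all tested genes, so these shares are not specific to the levels of the NK genes. Chi-square per degree of freedom between libraries of a group was 21.2 to 101, so none was a duplicate. Promoter windows were aligned with Biopython 1.88.

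The genes, lists and tests were chosen with earlier results of these data known, so their counts are descriptions and no set test was run. All 10 genes are named. Of each of the 7 related lists, the 4 with the lowest p are named, and others for their role, level or sign where stated. The genes most alike had a mean log2 CPM of at least 1.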

Additional observations from a re-analysis of the deposited data

Results flagged for a closer look

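Values were looked at for a KO library far from the other 3, judged by its gap to the nearest over the range of the group, against the 95% critical value of Dixon's test. Of 59 values 4 stood out, none of them an NK gene or their sum, and chance alone gives about 1 in 20. The summed ligands of NK receptors were at 3995 CPM in KO 1, against 3069 to 3198 CPM in the other KO libraries and 2912 to 3564 CPM in flox. H2-K1, a class I gene of that list, stood at 972 CPM in KO 1, against 704 to 736 CPM in the other KO libraries and 602 to 794 CPM in flox. Il15 was at 8.44 CPM in KO 3, below 10.8 to 11.2 CPM in the other KO libraries and 11.5 to 13.4 CPM in flox. The summed erythroid markers reached 71531 CPM in KO 3, against 54029 to 55036 CPM in the other KO libraries and 33865 to 56502 CPM in flox.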

How the results depend on the processing

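Under all 17 alternatives the 10 NK genes had positive log2 fold changes, 170 of 170 values. The fits reuse the same libraries, so this agreement in sign is not repeated support. None of the 10 passed the threshold except Klrb1c under DESeq2 (0.61, adjusted p = 0.039, with 1 of the 10 called). The median of the 10 ran from 0.42 without flox 1 to 0.58 without flox 3. The summed mean in flox was 60.2 CPM with haemoglobin, mitochondrial and immunoglobulin genes removed, against 57 CPM with them. The count of all genes past the threshold, 26, was 112 with no filter on low counts, 362 by DESeq2, 13 by limma-voom, 16 with the non-robust fit, 44 with haemoglobin, mitochondrial and immunoglobulin genes removed, and 2 to 14 with 1 library left out (2 without KO 1, KO 2 or KO 3, 4 without KO 4, 14 without flox 1, 4 without flox 2 and 3 without flox 3). With the replicate number as a block it was 4, and 0 of the 10 NK genes passed; same-numbered libraries did not deviate together (correlations -0.0221, 0.0768 and 0.0228), so the numbers were not taken as pairs. The causes of these shifts were not tested. Klra4 and Klra8 had the fewest reads of the 10, at 8 to 79 and 25 to 96 counts per library.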
